A study of Mus musculus with 12 samples.

Results

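The 9 genes described here are used as markers of the neurons of the gut wall: Ret, Elavl4, Uchl1, Prph, Snap25, Chat, Tac1, Nos1 and Vip. They were taken by symbol from a raw count table of 18514 genes measured by poly(A) RNA sequencing of mouse colorectal tissue, and all 9 had a row and passed the filter on low counts that left 15484 genes for testing. There were 12 libraries, 3 in each of 4 groups, all from male C57BL/6 mice bought at 4 weeks of age. Ctrl mice received neither carcinogen nor training, and Ctrl_Swim mice trained by swimming, building up to 90 min per day. Model mice received 1 injection of azoxymethane (AOM, a colon carcinogen) at 10 mg/kg and 3 cycles of 2% dextran sodium sulfate (DSS, which injures the colon lining) in drinking water, a model of colitis-associated cancer. Model_Swim mice had the same AOM/DSS course and the swimming, which began before it and ran through it. Mice that did not train were instead stood in shallow water, so contact with water was shared by all 4 groups. RNA came from colorectal tissue, and nothing in the labels says which length of colon, or how much tumor and muscle, each sample held.

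The enteric nervous system lies in the myenteric and submucosal plexuses, between and beneath the muscle and mucosa of the gut. Its neurons arise from neural crest cells that need the receptor tyrosine kinase RET and its ligand GDNF to colonize the bowel. Excitatory motor neurons release acetylcholine and tachykinins and contract the muscle, whereas inhibitory motor neurons release nitric oxide and vasoactive intestinal peptide and relax it. Neurons are a small fraction of the cells in the colon wall, so their transcripts are diluted by epithelial, muscle and immune RNA. In tissue of this kind, fewer neurons and less RNA per neuron cannot be told apart, nor can reads of these genes from other cells.

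The libraries held 17256953 to 19451055 counts. Some libraries stood apart. The summed level of 19 pancreatic acinar genes was 52486 CPM (counts scaled to a common library size) in Model 1 and 25637 CPM in Model 3, against 173 to 466 CPM in the other 10 libraries, where 1 of the 19 genes was at 0 in every Ctrl library (Ptf1a), 1 in every Ctrl_Swim library (Amy2a5) and 3 in every Model_Swim library. The summed level of 12 squamous keratinocyte genes was 5.80 to 10.7 CPM in the 3 Ctrl libraries, Ctrl_Swim 3 and Model 3, and 74.0 to 1778 CPM in the other 7. Colon epithelial genes were present in every library, with 14 of 14 such genes tested and none at 0 in any library. Of 74 further neuronal genes, 67 were tested, among them the neuronal tubulin Tubb3 at 15.2 ± 0.720 CPM in Ctrl (SD, n = 3 libraries). All CPM values below are scaled by the trimmed mean of M-values (TMM), and p-values are from edgeR's quasi-likelihood test across all groups, adjusted over the 15484 genes with a threshold of 0.05. The labels do not say that each library came from a separate mouse, so p-values measure the spread between these libraries, and an exact permutation test of 3 against 3 cannot go below p = 0.1.

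The windows below show the sequence ahead of the starts of Vip, Tac1 and Nos1, and are shown because these are the transmitter genes with enough counts to follow. Each runs over the 250 bases before a RefSeq transcript start on GRCm38.p6, with capitals marking any TGACG or CGTCA (the core of the cAMP response element), TATAAA or TTTATA (the TATA box) and TAATTA (a homeodomain site) on either strand.
Vip, chr10:5638968-5639217, plus strand: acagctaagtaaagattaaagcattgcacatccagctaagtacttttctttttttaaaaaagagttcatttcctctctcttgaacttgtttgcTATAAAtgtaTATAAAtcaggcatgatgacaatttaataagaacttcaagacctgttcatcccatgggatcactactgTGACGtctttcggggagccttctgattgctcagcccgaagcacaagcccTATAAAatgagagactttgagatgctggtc
Tac1, chr6:7554811-7555060, plus strand: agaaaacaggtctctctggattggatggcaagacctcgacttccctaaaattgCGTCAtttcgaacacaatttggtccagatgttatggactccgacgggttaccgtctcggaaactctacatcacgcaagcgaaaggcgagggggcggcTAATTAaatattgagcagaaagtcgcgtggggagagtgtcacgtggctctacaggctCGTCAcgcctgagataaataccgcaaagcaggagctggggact
Nos1, chr5:117866589-117866838, plus strand: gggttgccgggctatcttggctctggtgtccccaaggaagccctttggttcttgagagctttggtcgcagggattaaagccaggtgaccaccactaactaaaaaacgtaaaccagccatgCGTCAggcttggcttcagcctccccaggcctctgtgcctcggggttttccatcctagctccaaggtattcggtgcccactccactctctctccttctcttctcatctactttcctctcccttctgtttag
The TGACG core stood once in the Vip window, 2 times in the Tac1 window and once in the Nos1 window. It was present ahead of 5 of the 7 members that had a window in the table (Chat, Elavl4, Nos1, Tac1 and Vip), and in 17.8% of all 32851 windows of this length. Elavl4 had 4 windows, and a match in any of them counted. The member counts are thus per gene and the shares per window, and they are not directly comparable. TATAAA was found 3 times ahead of Vip, also ahead of Prph, and in 12.4% of all windows. TAATTA lay ahead of Tac1 and Elavl4 and in 4.84% of windows. These are matches of letters only, with no measurement of binding. The members lie on 7 chromosomes, with Ret (6:118151748-118197744) and Tac1 (6:7555061-7562978) both on chromosome 6 and Uchl1 (5:66676121-66687234) and Nos1 (5:117866839-117958840) both on chromosome 5. In GENCODE, Uchl1 shares 244 exonic bases with the antisense transcript Uchl1os, and Nos1 shares 268 with the antisense transcript Gm26995. The strand setting of the counting is not given in the sources used here, so reads from either strand of those stretches could not be told apart. Chat encloses the vesicular acetylcholine transporter gene Slc18a3 but shares no exonic base with it.

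Levels of different genes were compared as FPKM, fragments scaled by both depth and transcript length. Vip ranked first, with a mean of 25.3 ± 7.68 FPKM (SD, n = 12 libraries), followed by Uchl1 at 19.5 ± 6.59, Tac1 at 10.8 ± 2.90, Prph at 8.39 ± 2.97 and Snap25 at 6.77 ± 2.33 FPKM. Ret at 3.22 ± 0.612, Nos1 at 3.15 ± 0.994, Elavl4 at 1.01 ± 0.308 and Chat at 0.445 ± 0.185 FPKM were lower. The order was nearly the same inside each library: the higher gene of each neighboring pair was higher in 11 or 12 of 12 libraries, except for Ret over Nos1, which held in 7 of 12. The ranges of all neighboring pairs overlapped when libraries were pooled. Chat, the enzyme that makes acetylcholine, was the thinnest, with 9 to 42 counts per library.

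**Figure D1:**
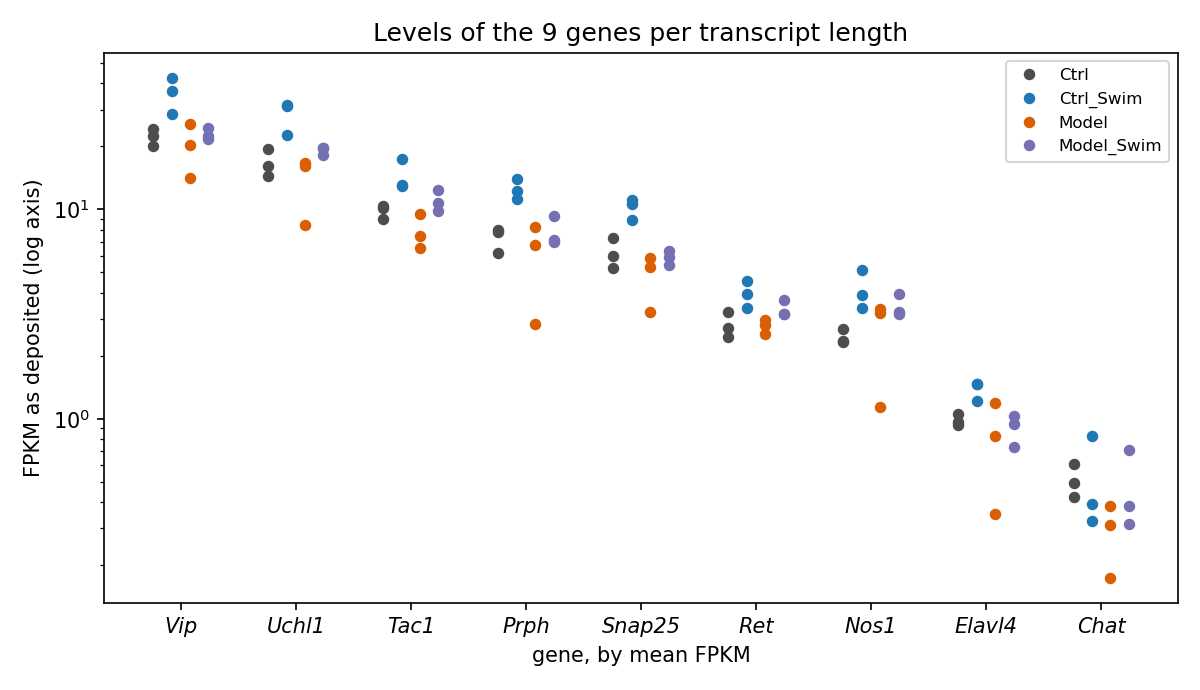
Level of each of the 9 genes in every library as FPKM on a log axis, with genes ordered by their mean and points colored by group. Vip stood highest at 25.3 FPKM on average and Chat lowest at 0.445 FPKM, and the Ctrl_Swim points sat at or near the top for every gene except Chat.

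Ret encodes the receptor for GDNF-family ligands and is kept on in mature enteric neurons. Its level was 21.4, 24.9 and 19.1 CPM in Ctrl, 25.4, 32.2 and 27.0 CPM in Ctrl_Swim, 20.3, 18.1 and 21.5 CPM in Model and 23.2, 23.0 and 26.8 CPM in Model_Swim. Swimming libraries lay above their non-swimming counterparts without overlap in both pairs, and Model overlapped Ctrl. In Model its SD was 1.72 CPM around a mean of 19.96 CPM.

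Among the genes for neuronal structure and release, Elavl4 encodes HuD, an RNA-binding protein of neurons. It was at 5.74, 6.16 and 5.55 CPM in Ctrl, 6.96, 7.87 and 7.56 CPM in Ctrl_Swim, 1.93, 4.47 and 6.54 CPM in Model and 5.23, 5.66 and 4.03 CPM in Model_Swim. Model 1 was the lowest of the 12 libraries and Model 3 the highest outside Ctrl_Swim, so the Model group alone spanned the Ctrl values. Uchl1 encodes the ubiquitin hydrolase PGP9.5, the protein most used to stain enteric nerves. It was at 17.8, 23.4 and 19.6 CPM in Ctrl, 26.5, 34.6 and 33.7 CPM in Ctrl_Swim, 9.49, 17.8 and 19.0 CPM in Model and 22.5, 20.7 and 22.2 CPM in Model_Swim. All Ctrl_Swim libraries were above every other library, and all Model_Swim libraries were above the Model libraries.

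Prph encodes peripherin, an intermediate filament of peripheral neurons. It was at 15.7, 19.6 and 19.5 CPM in Ctrl, 26.9, 31.8 and 26.6 CPM in Ctrl_Swim, 6.59, 15.3 and 19.2 CPM in Model and 21.7, 16.5 and 16.2 CPM in Model_Swim. Snap25 encodes a SNARE protein that fuses synaptic vesicles with the nerve terminal. It was at 14.7, 20.2 and 16.8 CPM in Ctrl, 23.9985, 28.2 and 25.9 CPM in Ctrl_Swim, 8.36, 14.9 and 13.8 CPM in Model and 16.6, 15.4 and 14.0 CPM in Model_Swim. For both genes the 3 Ctrl_Swim libraries were the 3 highest of the 12, and the other groups overlapped one another apart from the low value of Model 1.

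Of the excitatory transmitter genes, Chat was at 1.49, 1.80 and 1.26 CPM in Ctrl, 0.931, 2.23 and 1.02 CPM in Ctrl_Swim, 0.482, 1.04 and 0.861 CPM in Model and 0.881, 1.96 and 1.06 CPM in Model_Swim. Every Model value was below every Ctrl value, and Ctrl_Swim was split around Ctrl. Tac1, the precursor gene of substance P and neurokinin A, was at 16.4, 16.3 and 14.5 CPM in Ctrl, 20.1, 25.3 and 18.1 CPM in Ctrl_Swim, 11.1, 13.7 and 9.70 CPM in Model and 14.8, 18.4 and 15.8 CPM in Model_Swim. Model was lowest without overlap with any other group, and Ctrl_Swim lay above Ctrl.

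Of the inhibitory transmitter genes, Nos1, the neuronal nitric oxide synthase, was at 27.3, 31.0 and 27.3 CPM in Ctrl, 37.8, 54.4 and 39.97 CPM in Ctrl_Swim, 12.3, 33.8 and 36.3 CPM in Model and 35.4, 42.7 and 34.1 CPM in Model_Swim. Model 1 was far below the other Model libraries, both of which were above all Ctrl libraries. Vip was at 33.4, 39.5 and 37.1 CPM in Ctrl, 45.4, 55.4 and 61.4 CPM in Ctrl_Swim, 21.8, 30.6 and 39.3 CPM in Model and 34.8, 37.6 and 33.1 CPM in Model_Swim. The 3 Ctrl_Swim libraries were again the 3 highest. Across members, Ctrl_Swim 3 was the highest library for 8 of 9 genes (Ctrl_Swim 4 for Vip), and Model 1 the lowest for 7 of 9 (Model 2 for Ret and Model 3 for Tac1).

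**Figure D2:**
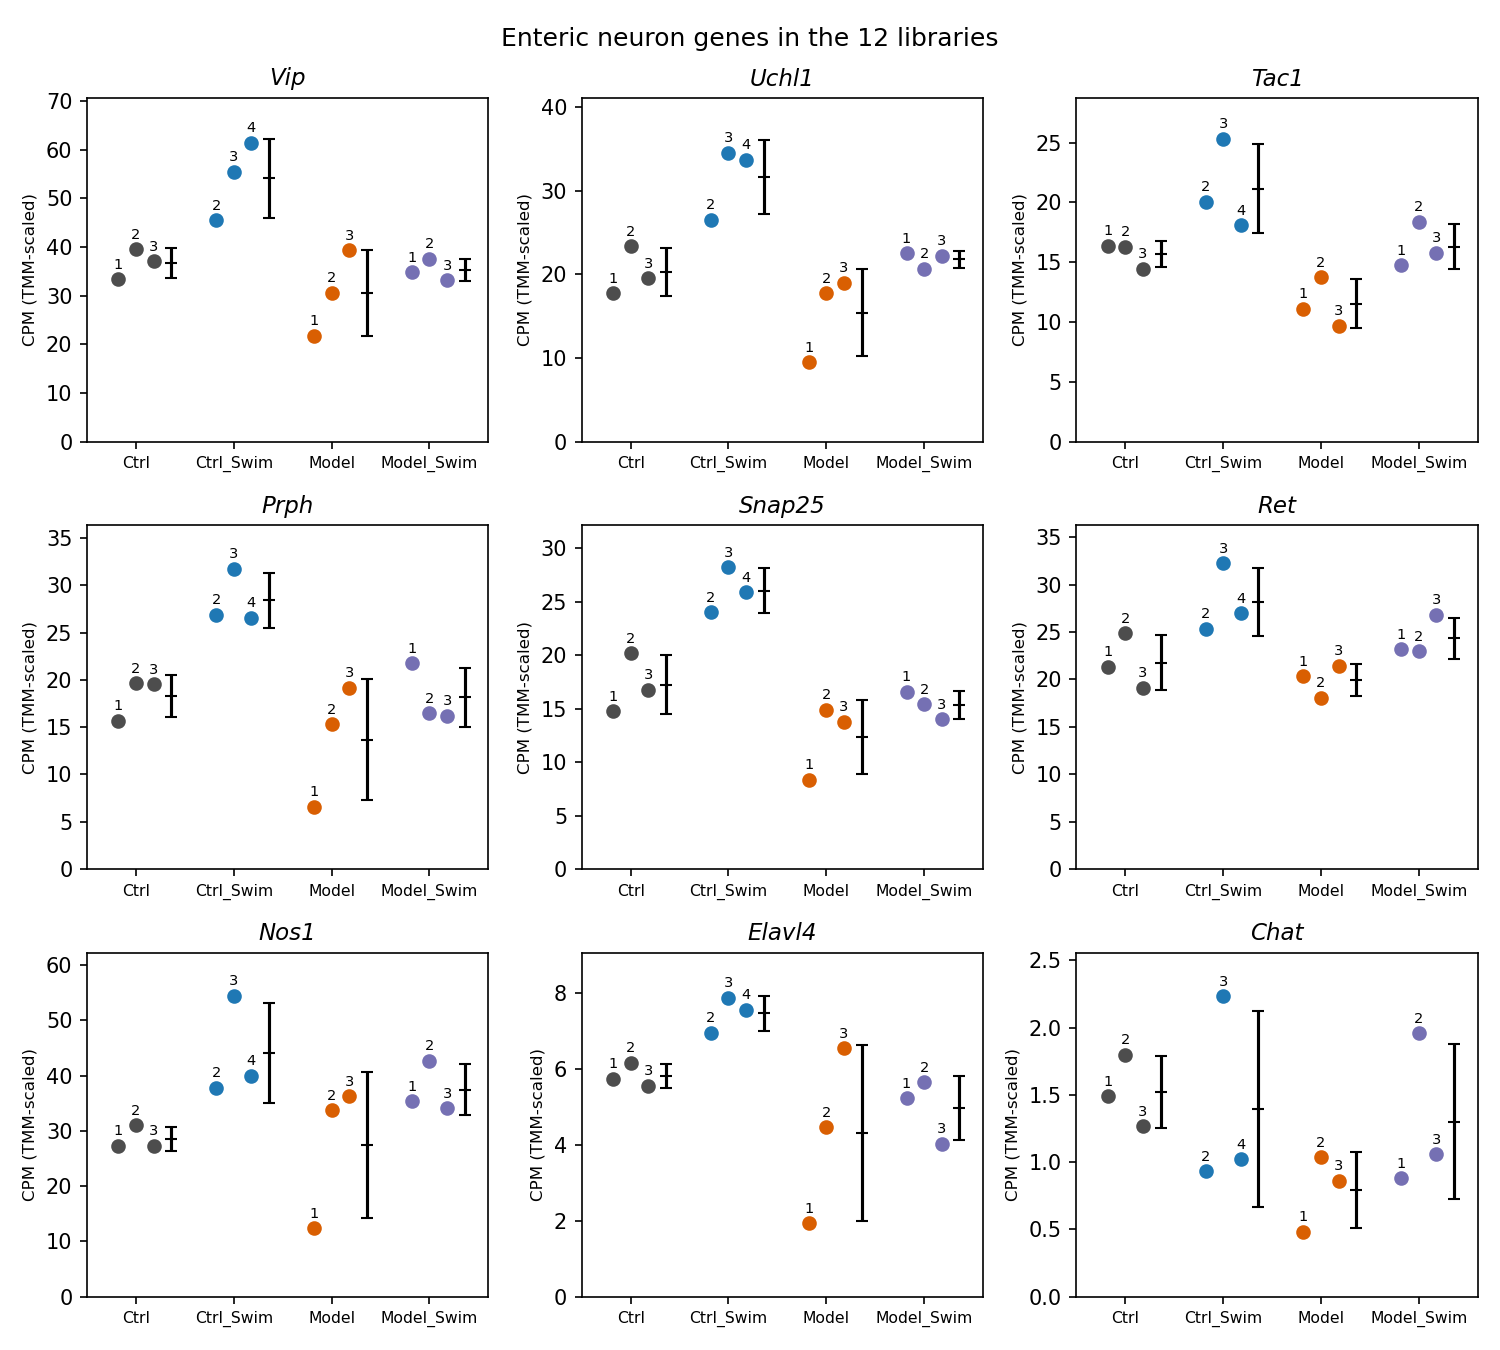
Level of each of the 9 genes in each library in TMM-scaled CPM, one panel per gene, with a point per library and group means with SD (n = 3). The Ctrl_Swim libraries lay above the Ctrl libraries without overlap for 8 genes, all except Chat, and Model 1 gave the lowest point for 7 genes.

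The first comparison asked how the neuronal genes stood in AOM/DSS-treated colon, Model against Ctrl. Of 9 members, 1 was called, Tac1, which fell by 0.45 on the log2 scale (SE 0.16, adjusted p = 0.0494), to 11.5 ± 2.05 CPM from 15.7 ± 1.09 CPM (SD, n = 3). In this comparison 32.7% of the genes tested were called and 16.2% were called lower, so 1 member in 9 is no more than the share of genes called. The other 8 members did not pass, although all 9 log2 fold changes were below 0 (50.5% of all genes were above 0), with a median of -0.42 against 0.0055 over all genes. Snap25 had a log2 fold change of -0.48 (95% interval -0.90 to -0.060, adjusted p = 0.0742) and Chat of -0.93 (interval -1.96 to 0.082). At the other end Ret was at -0.13 (interval -0.40 to 0.15) and Nos1 at -0.056 (interval -0.73 to 0.62). Model lay below Ctrl without overlap for 2 members, Tac1 and Chat, against 23.2% of all genes.

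Without Model 1 the members' median log2 fold change was -0.13, Nos1 stood at 0.31, and Tac1 was no longer called (adjusted p = 0.112), whereas without Model 3 Elavl4 and Vip were called lower and Tac1 was not. The Tac1 call was lost in 22 of 25 other settings, with adjusted p from 0.0295 to 0.427 over all of them. Model 1 was also the library with the most acinar RNA, and its sums for glia (408 CPM) and smooth muscle (7213 CPM) were the lowest of all 12, with none of the 14 glial and 18 smooth muscle genes at 0 in it. Genes of other cells differed between the groups as well, with 8 of 14 colon epithelial genes called lower (median log2 fold change -0.46), 11 of 13 B cell genes called higher and 7 of 9 fibroblast genes called higher. Per 100 CPM of colon epithelial genes the members summed to 0.667 ± 0.0990 CPM in Model and 0.540 ± 0.0829 CPM in Ctrl (SD, n = 3), with overlapping ranges. Per 100 CPM of enteroendocrine genes they summed to 32.6 ± 2.29 CPM in Model and 28.2 ± 1.96 CPM in Ctrl, without overlap. Per 100 CPM of pacemaker genes the order was the reverse, at 32.6 ± 9.53 CPM in Model and 49.3 ± 4.15 CPM in Ctrl, also without overlap. The pacemaker genes did not move one way: of 6 tested, 4 were above 0 and 2 below 0. Kit was at 88.7 ± 30.5 CPM in Model and 112 ± 6.08 CPM in Ctrl. Ano1 was at 188 ± 79.1 CPM in Model and 128 ± 12.2 CPM in Ctrl, and Pdgfra at 109 ± 21.0 and 67.0 ± 7.60 CPM. The part of these cells in the neuronal values was not tested. With smooth muscle level as a covariate the members' median was -0.20 and none was called. Scaling by library totals in place of TMM raised log2 fold changes of all genes by a median of 0.12 in this comparison and put Nos1 at 0.061, with the other 8 members still below 0.

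The second comparison, Model_Swim against Model, asked what swimming did alongside AOM/DSS. No member was called by edgeR, DESeq2 or limma, in a comparison where edgeR called 0.071% of genes. All 9 log2 fold changes were above 0, against 48.2% of all genes, with a median of 0.41 against -0.0085 over all genes. At an unadjusted p under 0.05, 3 members were higher (Ret, Uchl1 and Tac1), against 6.66% of all genes, and the same 3 did not overlap between groups, against 8.32%. Tac1 had a log2 fold change of 0.50 (95% interval 0.15 to 0.85, adjusted p = 0.235), Uchl1 of 0.50 (0.023 to 0.98) and Ret of 0.29 (0.013 to 0.56). The median was 0.091 without Model 1, where Elavl4 turned to -0.15, 0.65 without Model 3 and 0.16 with the acinar covariate. Other cell types differed between these groups. All 16 acinar genes tested and all 13 B cell genes were below 0, with a median of -1.21 for the B cell genes. None of either list was called by edgeR. At an unadjusted p under 0.05, 16 acinar and 11 B cell genes were lower, where 1070 of 15484 genes were. B cell sums were 205 to 240 CPM in Model and 79.7 to 121 CPM in Model_Swim, and the part of these cells in the neuronal values was not tested. Model_Swim was the more uniform of these groups, with the 9 members summing to 167 to 182 CPM against 92.4 to 166 CPM in Model.

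The third comparison, Ctrl_Swim against Ctrl, asked what swimming alone did in untreated colon. Mean Uchl1 was 31.6 ± 4.43 CPM in Ctrl_Swim against 20.2 ± 2.87 CPM in Ctrl (SD, n = 3), a log2 fold change of 0.64 (SE 0.21). Prph stood at 0.64 (SE 0.29), Nos1 at 0.63 (SE 0.31), Snap25 at 0.59 (SE 0.19) and Vip at 0.56 (SE 0.18). Tac1 at 0.43, Ret at 0.37 and Elavl4 at 0.36 were also above 0, in a comparison where 50% of all genes were, and Chat was at -0.12 (95% interval -1.11 to 0.86). The 8 members other than Chat lay above Ctrl without overlap, against 12.6% of all genes, and the median over members was 0.56 against 0.00044 over all genes.

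None of the 9 passed the adjusted threshold, with adjusted p of 0.160 to 0.915, in a comparison where 0.969% of genes were called and 0.168% were called higher. At an unadjusted p under 0.05, 6 were higher (Ret, Uchl1, Vip, Tac1, Snap25 and Prph), against 8.14% of genes. DESeq2 called 2 (Snap25 and Vip) and 4.92% of its genes, and limma on FPKM called 0 and 0.347% to 0.544%. edgeR on the Ctrl and Ctrl_Swim libraries alone called 4 (Prph, Snap25, Uchl1 and Vip) and 2.49% of genes. Without Model 1, which is in neither group compared, 4 were called (Nos1, Snap25, Uchl1 and Vip) beside 1.93% of genes, and without Model 1 and Model 3, 5 were, beside 3.79%. None was called when any other single library was left out. The calls thus depended on which libraries entered the fit, while the median stayed between 0.46 and 0.67 when any of the 12 libraries was left out. With library totals in place of TMM all 9 were above 0 (Chat at 0.010) and all genes shifted up by a median of 0.13.

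Genes of other cell types were set beside these values. The summed level of the members was 214 to 272 CPM in Ctrl_Swim and 154 to 183 CPM in Ctrl. Smooth muscle genes had a median log2 fold change of -0.0057 (18 tested, 0 called), with sums of 8459 to 11068 CPM in Ctrl_Swim and 9098 to 9440 CPM in Ctrl, so the members per 100 CPM of smooth muscle were 2.56 ± 0.260 in Ctrl_Swim and 1.78 ± 0.139 in Ctrl (SD, n = 3). With smooth muscle as a covariate the members' median was 0.57. Enteric glial genes, by contrast, had a median of 0.45 (13 tested), with 12 above 0 and 1 called, the glial cadherin Cdh19 (log2 fold change 1.03, SE 0.21, adjusted p = 0.0499), named after its values were seen because it was the only call on its list. Squamous genes were at 74.0, 5.80 and 635 CPM in Ctrl_Swim 2, Ctrl_Swim 3 and Ctrl_Swim 4. Skeletal muscle genes were at 47.0 to 449 CPM in Ctrl_Swim and 41.4 to 81.7 CPM in Ctrl. Colon epithelial genes had a median of -0.19 with 13 of 14 below 0. Tuft cell genes were below 0 in 9 of 9, with 6 lower without overlap, where 2303 of 15484 genes were. Acinar genes were below 0 in 16 of 16, and B cell genes were above 0 in 11 of 13 with a median of 0.67. None of these 4 lists had a gene called by edgeR, where 0.969% of all genes were called. At an unadjusted p under 0.05 there were 3 epithelial, 5 tuft and 1 acinar gene lower and 1 B cell gene higher. Over all 15484 genes, 1470 were lower and 1260 higher at that level. The part of these tissues in the neuronal values was not tested.

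**Figure D3:**
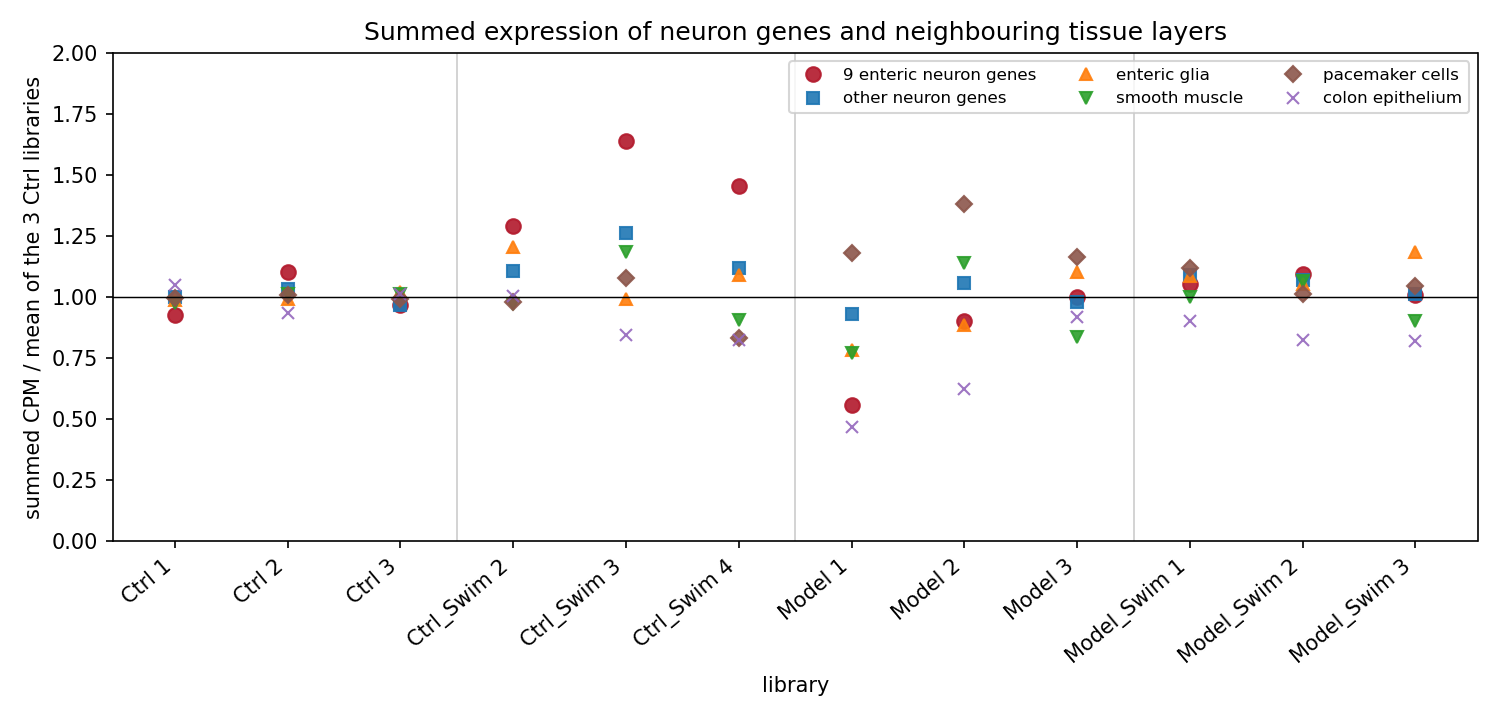
Summed level of the 9 neuronal genes, of glial, smooth muscle, pacemaker and colon epithelial genes and of the other neuron genes in each library, relative to the mean of the Ctrl libraries. The sum of the 9 genes was 214 to 272 CPM in Ctrl_Swim against 154 to 183 CPM in Ctrl, while the smooth muscle sum overlapped between these groups, and Model 1 was lowest for every sum shown except that of the pacemaker genes.

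The last pairwise comparison, Model_Swim against Ctrl_Swim, asked how AOM/DSS-treated colon differed among swimmers. Snap25 was called lower, with a log2 fold change of -0.76 (SE 0.19, adjusted p = 0.0443), at 15.3 ± 1.29 CPM against 26.0 ± 2.10 CPM (SD, n = 3). It was the only member called, in a comparison where 5.18% of genes were called and 1.69% were called lower. Vip was close to the threshold at -0.62 (95% interval -1.01 to -0.23, adjusted p = 0.0697), and Prph stood at -0.65 (SE 0.29), Elavl4 at -0.59 (SE 0.33) and Uchl1 at -0.54 (SE 0.21). All 9 were below 0, where 48.2% of all genes were above 0, with a median of -0.54 against -0.010 over all genes, and 5 did not overlap (Elavl4, Uchl1, Vip, Snap25 and Prph), against 16.5% of all genes. Snap25 was at 17.2 ± 2.75 CPM in Ctrl. This comparison shares its Ctrl_Swim libraries with the third.

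The count of calls depended on the libraries included. It was 4 without Model 1 (8.92% of all genes called), 1 without Model 2 (6.11%), 2 without Model 3 (9.30%) and 5 without Model 1 and Model 3 (13.5%). It was 0 when any Ctrl, Ctrl_Swim or Model_Swim library was left out, where 1.08% to 3.21% of genes were called, with Snap25 between -0.83 and -0.66 and its adjusted p between 0.0030 and 0.190 over all settings. No member passed the study's added cutoff of a fold change of 2 in any comparison, which 7.43% of genes passed in Model against Ctrl, 0.071% in Model_Swim against Model, 0.168% in Ctrl_Swim against Ctrl, 1% in Model_Swim against Ctrl_Swim and 0% for the interaction.

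**Figure D4:**
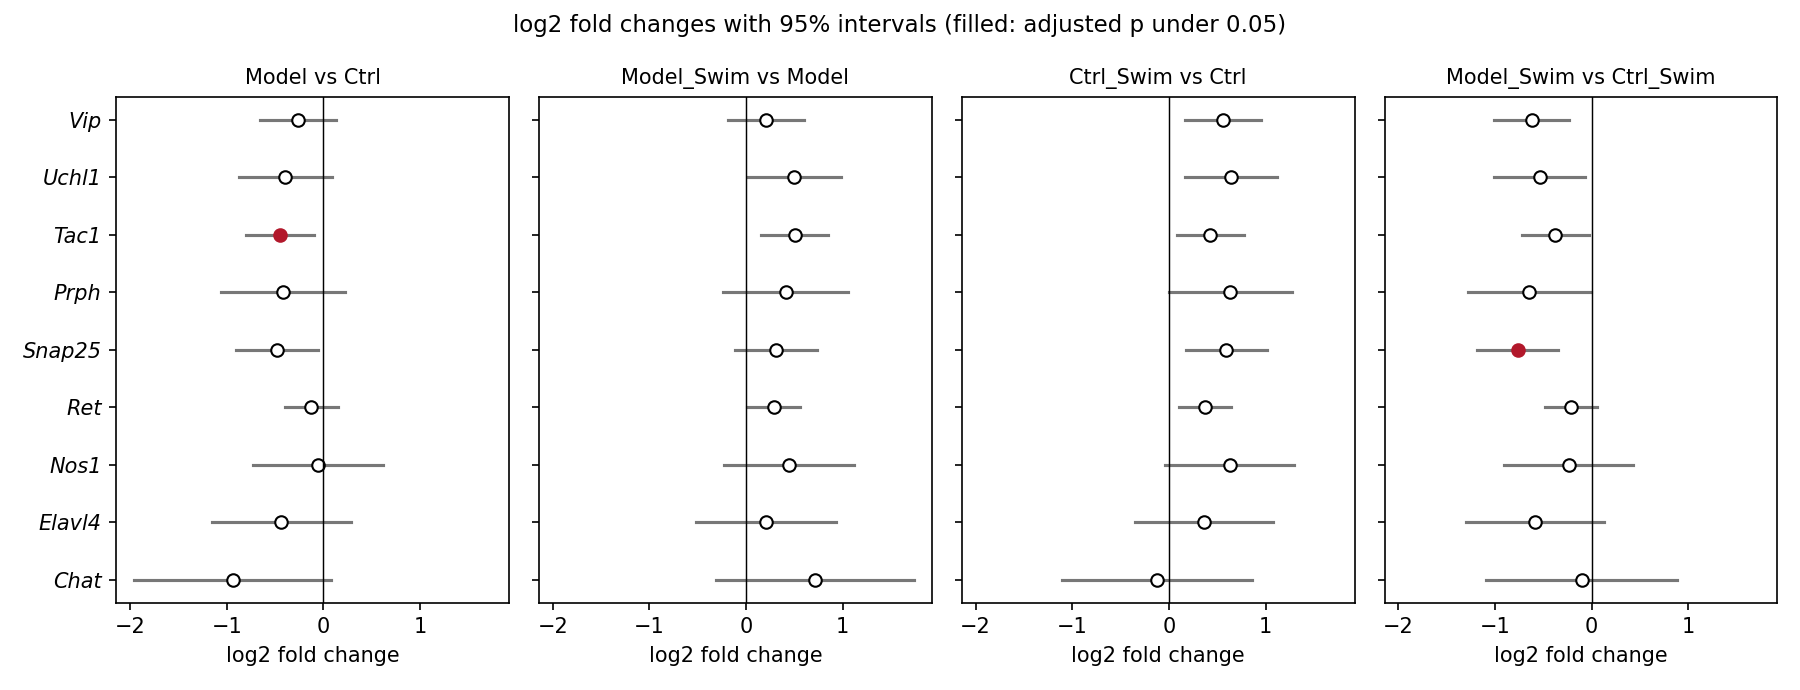
Log2 fold change of each member in the 4 pairwise comparisons with 95% intervals from the edgeR fit, with filled points for an adjusted p under 0.05. Tac1 in Model against Ctrl (-0.45) and Snap25 in Model_Swim against Ctrl_Swim (-0.76) are filled.

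Whether swimming acted differently with and without AOM/DSS was asked by the interaction term. edgeR called none of the 9 and 0% of all genes, limma called none of the members either, and no member reached an unadjusted p under 0.05, against 19% of all genes. The estimates ranged from -0.36 for Vip (95% interval -0.91 to 0.20) to 0.83 for Chat (interval -0.59 to 2.26). DESeq2 called 5.52% of its genes for the interaction, with none of the members among them.

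The mix of members was described by each gene's share of their sum, with no test. Vip made up 22.1 ± 0.83% of the members' summed CPM in Ctrl, 22.4 ± 2.72% in Ctrl_Swim, 22.5 ± 1.83% in Model and 20.1 ± 0.49% in Model_Swim (SD, n = 3). Nos1 made up 17.2 ± 0.44%, 18.1 ± 1.75%, 19.3 ± 5.13% and 21.4 ± 1.84%. Within libraries, the log2 CPM of Nos1 minus that of Vip was -0.36 ± 0.075 in Ctrl, -0.30 ± 0.30 in Ctrl_Swim, -0.26 ± 0.50 in Model and 0.084 ± 0.087 in Model_Swim (SD, n = 3). All 3 Model_Swim libraries were above 0, and the highest Model library, at 0.14, was too. Ret took 22.0% of the sum in Model 1 against 11.2% to 16.02% in the other libraries.

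The members varied together across libraries. Pearson's r of log2 CPM over the 12 libraries was 0.42 to 0.95 for the 36 pairs (median 0.73), highest for Uchl1 with Prph and lowest for Ret with Chat. With group means removed, r ranged from -0.15 to 0.93 (median 0.57). The values of all genes in a library share its depth, its mix of tissues and its scaling factor, so these are descriptions of these libraries. The search covered 14005 genes with a mean of at least 1 CPM, members included, with gene models and pseudogenes left out. Outside the members, those most like the mean of the 9 members were Rtn1 (r = 0.976), Syt4 (0.976), Lingo1 (0.971), Napb (0.970), Syt1 (0.967), Kif5a (0.964), Gria2 (0.963), Ndst4 (0.963), Tubb3 (0.960) and Rit2 (0.960), over 12 libraries. Rtn1, a reticulon of neurons, was at 16.6 ± 2.92 CPM in Ctrl, 24.1 ± 1.78 in Ctrl_Swim, 11.9 ± 4.53 in Model and 16.6 ± 0.651 in Model_Swim CPM (SD, n = 3). By single member, Prph was most like Gfra1 (r = 0.987), the GDNF co-receptor that pairs with RET, Uchl1 most like Rtn1 (0.986), Nos1 like the neuronal enolase Eno2 (0.980), Elavl4 like Slc7a14 (0.972), Snap25 like Lingo1 (0.967) and Vip like Nsg2 (0.962). Ret (Gkap1, 0.914), Tac1 (Cend1, 0.934) and Chat (Vgf, 0.860) had no partner as close.

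The 74 further neuronal genes gave a wider view, although several of them are also used by endocrine or epithelial cells. In Model against Ctrl, 9 of 67 tested were called, 3 higher and 6 lower, a smaller share than the 32.7% of all genes called, with a median log2 fold change of -0.24. The genes that fell were the granule protein Scg2 (-0.82, SE 0.18), the synaptic calcium sensor Syt1 (-0.67, SE 0.20), the monoamine transporter Slc18a2 (-0.74, SE 0.25) and the peptides Nmu (-1.36, SE 0.43, the third call on its list and so named after its values were seen), Grp (-1.51, SE 0.51) and Sst (-1.47, SE 0.33). Of these, Scg2, Slc18a2 and Sst are known from enteroendocrine cells as well, whose 15 markers summed to 285 to 547 CPM in Model and 537 to 702 CPM in Ctrl with none at 0. Their part was not tested. Among the genes that rose were the membrane fusion protein Stx1a (1.63, SE 0.38) and the transcription factor Meis2 (0.78, SE 0.13), neither of which is restricted to neurons. With library totals in place of TMM the split was 7 higher and 3 lower. By role, medians were -0.33 for structural genes, -0.25 for synaptic genes, 0.35 for transcription factors and -0.30 for transmitter genes. The 2 most abundant structural genes, Stmn2 (-0.44, SE 0.23) and Dpysl3 (0.21, SE 0.09), were not called.

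In Ctrl_Swim against Ctrl 61 of 67 further neuronal genes were above 0, against 50% of all genes, with a median of 0.38. Of the 67, 37 lay above Ctrl without overlap, against 12.6% of all genes. At an unadjusted p under 0.05, 16 were higher, against 8.14%. By edgeR or limma 0 were called, where edgeR called 0.969% of genes. DESeq2 called 1 of them and 4.92% of its genes. By role, medians were 0.43 for structural genes (18 tested), 0.43 for synaptic genes (21), 0.33 for transcription factors (10) and 0.35 for transmitter genes (18). Stmn2, a microtubule regulator of axons, was at 0.53 (SE 0.22), and the vesicle protein Vamp2 at 0.23 (SE 0.09). In Model_Swim against Model 46 of 67 were above 0, against 48.2% of all genes, and 0 were called by edgeR. At an unadjusted p under 0.05, 12 were higher there, against 6.66% of all genes. In Model_Swim against Ctrl_Swim 3 were called, 2 lower and 1 higher, where 5.18% of all genes were called. Of the 67, 54 were below 0, where 48.2% of all genes were above 0. The 2 that fell were Nsg2 (-0.75, SE 0.18) and Scg2 (-0.70, SE 0.18), named after their values were seen.

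The RET ligands, co-receptors and linked crest signals came next. In Model against Ctrl 1 of 14 tested was called, where 32.7% of all genes were called. It was Edn3, the endothelin ligand needed by migrating crest cells, at -0.66 (SE 0.14, adjusted p = 0.0065). Its level was 9.08 ± 1.23 CPM in Model and 14.3 ± 0.472 CPM in Ctrl (SD, n = 3). None was called by edgeR in the other comparisons, where 0% to 5.18% of all genes were called. At an unadjusted p under 0.05, 3 were higher in Ctrl_Swim against Ctrl, against 8.14% of all genes. In Model_Swim against Model 1 was higher and 1 lower, where 1032 of 15484 genes were higher and 1070 lower. In Model_Swim against Ctrl_Swim 2 were lower, where 1615 of 15484 genes were lower. The most abundant of them, the endothelin converting enzyme Ece1, was at -0.14 (SE 0.09) in Model, and Gfra1 was at 0.73 (SE 0.28) in Ctrl_Swim.

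Receptors and effectors of enteric transmitters, those of the members and of serotonin and other peptides, are made by epithelium and muscle as well as neurons, and were measured in the same bulk tissue. Of 19 tested in Model against Ctrl, 3 were called, where 32.7% of all genes were called and 16.2% were called lower. The 3 were all lower: the muscarinic receptor Chrm3 (-1.42, SE 0.27), the serotonin receptor Htr4 (-0.66, SE 0.17) and the VIP receptor Vipr1 (-0.43, SE 0.10). Vipr1, the most abundant, was at 210 ± 13.8 CPM in Model and 283 ± 19.98 CPM in Ctrl (SD, n = 3). The colon epithelial sum moved with it, at 14469 to 28328 CPM in Model and 28875 to 32446 CPM in Ctrl, and its part in the receptor values was not tested. Chrm3 was at 15.997 ± 1.20 CPM in Ctrl and at 6.53 ± 0.489, 5.98 ± 1.60 and 5.17 ± 2.15 CPM in Ctrl_Swim, Model and Model_Swim, and its log2 fold change in Ctrl_Swim against Ctrl was -1.29 (SE 0.27, adjusted p = 0.0538). Htr4 was also lower in Model_Swim than in Ctrl_Swim (-0.82, SE 0.17, adjusted p = 0.0226), and the guanylyl cyclase subunit gene listed as Gucy1b3, through which nitric oxide acts in muscle, was at -0.025 (SE 0.22) in Model and was not called in any comparison.

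Glial genes in Model against Ctrl did not move one way. S100b (-0.81, SE 0.27), Gfap (-0.63, SE 0.20) and the adhesion molecule L1cam (-0.45, SE 0.12) fell and the membrane glycoprotein Gpm6b (0.87, SE 0.13) rose, out of 13 tested, with a median of -0.12. In Model_Swim against Ctrl_Swim Cdh19 fell by 1.08 on the log2 scale (SE 0.21), and no other glial gene was called. The members per 100 CPM of glial genes were 31.8 ± 3.04 in Ctrl, 43.0 ± 9.32 in Ctrl_Swim, 28.0 ± 4.92 in Model and 30.4 ± 2.999 in Model_Swim (SD, n = 3), with ranges that overlapped between Ctrl and Ctrl_Swim.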

How the data were processed

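Colorectal RNA of 12 libraries was sequenced on an Illumina HiSeq instrument after stranded poly(A) preparation. As the study's methods state, reads were trimmed (Trimmomatic), aligned to GRCm38.p6 (HISAT2) and summarized by gene (HTSeq-count) by the authors. The deposited count table holds raw read counts. The FPKM table was deposited by the authors, who credit Cufflinks, and within a gene its values moved in proportion to the share of counts. The annotation and strand setting of the counting are not given in the sources used here.

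Counts were analyzed with edgeR 4.0.16 in R 4.3.3 (filterByExpr, minimum count 10, TMM scaling, 1 quasi-likelihood fit over the 4 groups, Benjamini-Hochberg adjustment over 15484 genes). Genes with an adjusted p under 0.05 were called. Depth was 17256953 to 19451055 counts per library, and a count of 0 allows up to 3 counts, or 0.154 to 0.174 CPM. Intervals of fold changes are 95% intervals. Replicates of a group differed by 7.69 to 118 times the sampling noise (chi-square per degree of freedom), so no library was a repeat of another.

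Groups came from the treatment and title labels. Alternatives were DESeq2 1.42.0 (test and size factors), limma 3.58.1 on log2(FPKM + 1) or log2(FPKM + 0.1) with or without a mean FPKM minimum of 0.5, no filter, only the groups compared, a replicate block, acinar and smooth muscle covariates, and leaving out libraries. A squamous covariate and scaling by library totals were added after seeing the data. Scripts were tested on simulated counts. The members and gene lists were chosen with earlier results of these data known. Named genes were all members, the 2 most abundant genes and up to 2 largest called rises and falls of each list in Model against Ctrl, and the genes with the highest correlation, with exceptions stated. The values of 1 gene are not reported here. Promoter sequences were from RefSeq (GRCm38.p6), with windows for 7 of 9 members.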

Additional observations from a re-analysis of the deposited data

How the results depend on the processing

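Of 9 members, the 1 called in Model against Ctrl became 0 with DESeq2 size factors, no filter, only the groups compared, the replicate block, both cutoffs, the acinar, smooth muscle or squamous covariate, each limma fit on FPKM, library totals, or without Model 1 and Model 3. In those settings 7.43% to 32.7% of all genes were called. The count was 0 to 2 when 1 library was left out (20.1% to 35.8%). In Ctrl_Swim against Ctrl 0 became 2 with DESeq2 (4.92% of all genes called), 4 with only the groups compared (2.49%) and 5 without Model 1 and Model 3 (3.79%). The count was 0 to 4 when 1 library was left out (0% to 1.93%). In Model_Swim against Ctrl_Swim 1 became 2 with DESeq2 (10.6% of all genes called), 4 with only the groups compared (8.59%) and 5 without Model 1 and Model 3 (13.5%). It became 0 with the replicate block (0.258%), both cutoffs (1%), the squamous covariate (4.09%), limma with pseudocount 0.1 (5.8%) or limma with no filter (5.2%). The count was 0 to 4 when 1 library was left out (1.08% to 9.3%). Model_Swim against Model and the interaction gave 0 members called throughout, where up to 5.62% and 5.75% of all genes were called.

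Of the further neuronal genes, the 9 called in Model against Ctrl became 16 with DESeq2 (34.2% of all genes called) and 5 with both cutoffs (7.43%). They became 3 with the acinar covariate (19.4%), 4 with the squamous covariate (17.9%) and 5 to 20 when 1 library was left out (20.1% to 35.8%). In Model_Swim against Model 0 became 0 to 3 when 1 was left out (0.0382% to 5.62% of all genes called). In Ctrl_Swim against Ctrl 0 became 1 with DESeq2 (4.92%), 5 with only the groups compared (2.49%) and 0 to 3 when 1 was left out (0% to 1.93%). In Model_Swim against Ctrl_Swim 3 became 7 with DESeq2 (10.6%), 13 with only the groups compared (8.59%) and 23 without Model 1 and Model 3 (13.5%). It became 5 with the acinar covariate (4.84%), and 0 with the replicate block (0.258%) or the squamous covariate (4.09%). It was 1 with both cutoffs (1%), 0 with limma and pseudocount 0.1 (5.8%) and 1 with limma and no filter (5.2%). The count was 0 to 12 when 1 was left out (1.08% to 9.3%). For the interaction 0 became 0 to 1 when 1 was left out (0% to 4.57%).

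Signs of log2 fold changes turned as follows. In Model against Ctrl Ret was at 0.0025 with the squamous covariate, and Nos1 at 0.22 (acinar covariate), 0.23 (smooth muscle covariate), 0.22 (without Model 1 and Model 3), 0.18 (squamous covariate) and 0.061 (library totals), and at -0.30 to 0.31 when 1 library was left out. Snap25 in Model_Swim against Model was at -0.066 with the acinar covariate, and Elavl4 at -0.15 to 0.65 when 1 library was left out. In Model_Swim against Ctrl_Swim Chat was at 0.11 (smooth muscle covariate) and 0.069 (squamous covariate), and at -0.53 to 0.40 when 1 library was left out. In Ctrl_Swim against Ctrl it was at 0.010 with library totals and -0.62 to 0.12 when 1 was left out. For the interaction Ret was at 0.11 (acinar covariate) and 0.065 (without Model 1 and Model 3). With the replicate block Elavl4 was at 0.074, Uchl1 at 0.073, Nos1 at 0.023 and Tac1 at -0.014. When 1 library was left out, the interaction ranged from -0.53 to 0.27 for Elavl4, -0.42 to 0.027 for Uchl1, -0.55 to 0.065 for Nos1, -0.052 to 0.20 for Tac1 and -0.58 to 0.086 for Prph. Tac1 was also at -0.10 (acinar covariate), -0.0056 (smooth muscle covariate), -0.055 (limma, pseudocount 1, with or without the filter), -0.047 (limma, pseudocount 0.1), -0.17 (without Model 1 and Model 3) and -0.071 (library totals). The block rests on replicate numbers, and whether these pair the libraries is not settled, since same-numbered deviations correlated at -0.26 to 0.40. Chat has no DESeq2 value in Ctrl_Swim against Ctrl and fell under the FPKM minimum. The cause was not tested. At 9 to 42 counts per library, depth limits Chat most.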
